A study of Drosophila melanogaster with 12 samples.

Results

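The effect of the parkin mutation was compared between dopaminergic and cholinergic neurons of the adult Drosophila melanogaster brain. All 12 arrays of the series entered, placed in 4 groups by the neuron type and genotype in their titles. The 4 groups, with 3 arrays each, were dopaminergic neurons of parkin null mutants, dopaminergic neurons of controls, cholinergic neurons of parkin null mutants and cholinergic neurons of controls. Each array held amplified RNA of 115 neurons, sorted by their green fluorescence from at least 15 dissociated brains. The allele of parkin, the driver of the fluorescent protein, and the sex and age of the flies are not given in the sources used here. The quantity examined was a difference of effects for each gene, namely the dopaminergic effect (mutant minus control) minus the cholinergic effect (mutant minus control). It was computed with all 12 arrays and again without dopaminergic mutant replicate 3, the array with the title code F6.

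Parkin is a ubiquitin ligase that the kinase PINK1 recruits to damaged mitochondria, where it marks outer membrane proteins so that the organelle is removed. Flies without parkin have swollen mitochondria, wasting of the flight muscle, and loss of some dopaminergic neurons. The title of the series sets sensitive against insensitive neuron populations, and the difference of effects is the comparison that bears on that contrast. A gene may have an effect of opposite direction in the 2 types, or an effect in 1 type alone, and both patterns give a difference away from 0.

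The arrays differed in how many probe sets were bright, and this count moved with the contrast itself. The number at or above a log2 intensity of 8 was 2182, 3119 and 1627 in dopaminergic mutants, 2649, 2866 and 2613 in dopaminergic controls, 3009, 3092 and 3307 in cholinergic mutants, and 2911, 2380 and 2896 in cholinergic controls. The mutant effect on this count was −400.0 in dopaminergic and 407.0 in cholinergic neurons, a difference of −807.0 (exact permutation test within neuron types, 2-sided, p = 0.115). Without dopaminergic mutant replicate 3 the difference was −465.8 (exact permutation p = 0.27). That array correlated with the others at r = 0.263 to 0.532, across probe sets. The part of the bright count in the gene results was not tested. The tyrosine hydroxylase gene ple, which defines dopaminergic neurons, measured 7.01, 10.94 and 4.36 (log2 intensity) in dopaminergic mutants, against 10.39, 10.56 and 10.57 in dopaminergic controls, and 3.61 to 4.18 on the cholinergic arrays. The choline acetyltransferase gene ChAT, which defines cholinergic neurons, did not set the types apart, with 9.28 to 11.39 in dopaminergic controls and 9.72 to 11.21 in cholinergic controls. The annotation paired no probe set with the parkin gene alone, and the probe set of Pink1 was too dim to be kept, so loss of parkin could not be checked on these arrays.

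No gene passed the test of the difference of effects. With limma, 0 of 12460 probe sets (0.0%) had an adjusted p under 0.05, and the smallest adjusted p was 0.326. At an unadjusted p under 0.05 there were 645 (5.18%), of which 262 (2.1%) had a difference above 0 and 383 (3.07%) a difference below 0. Without dopaminergic mutant replicate 3 the count was again 0 (0.0%), with a smallest adjusted p of 0.473 and 527 (4.23%) at an unadjusted p under 0.05, 273 above 0 (2.19%) and 254 below (2.04%). The excess of differences below 0 was therefore not present without that array. Taken singly, the effect in dopaminergic neurons passed for 0 probe sets (0.0%; 560, or 4.49%, at an unadjusted p under 0.05) and the effect in cholinergic neurons for 6 (0.0482%; 569, or 4.57%). A count of 6 against 0 is not a test of the difference. Mutant and control arrays were separated without overlap for 1121 probe sets in dopaminergic neurons (9.0%), with mutants higher for 760 (6.1%) and lower for 361 (2.9%). In cholinergic neurons they were separated for 1486 (11.9%), with mutants higher for 457 (3.67%) and lower for 1029 (8.26%). Without dopaminergic mutant replicate 3 the cholinergic effect passed for 1 probe set (0.00803%), the dopaminergic effect for 0 (0.0%), and 1792 (14.4%) were separated in dopaminergic neurons, where fewer arrays can overlap.

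Across all probe sets the effects in the 2 types were close to unrelated (r = −0.098 across 12460 probe sets, which share arrays and are not independent; r = −0.001 without dopaminergic mutant replicate 3). An effect below 0 in dopaminergic and above 0 in cholinergic neurons was measured for 20.8% of probe sets, and the opposite orientation for 38.6%. Centring every array on its median brought these shares to 26.0% and 30.5%, because the median effect was 0.18 in dopaminergic and −0.17 in cholinergic neurons as deposited. The median difference was 0.26 as deposited and −0.01 after centring.

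**Figure D1:**
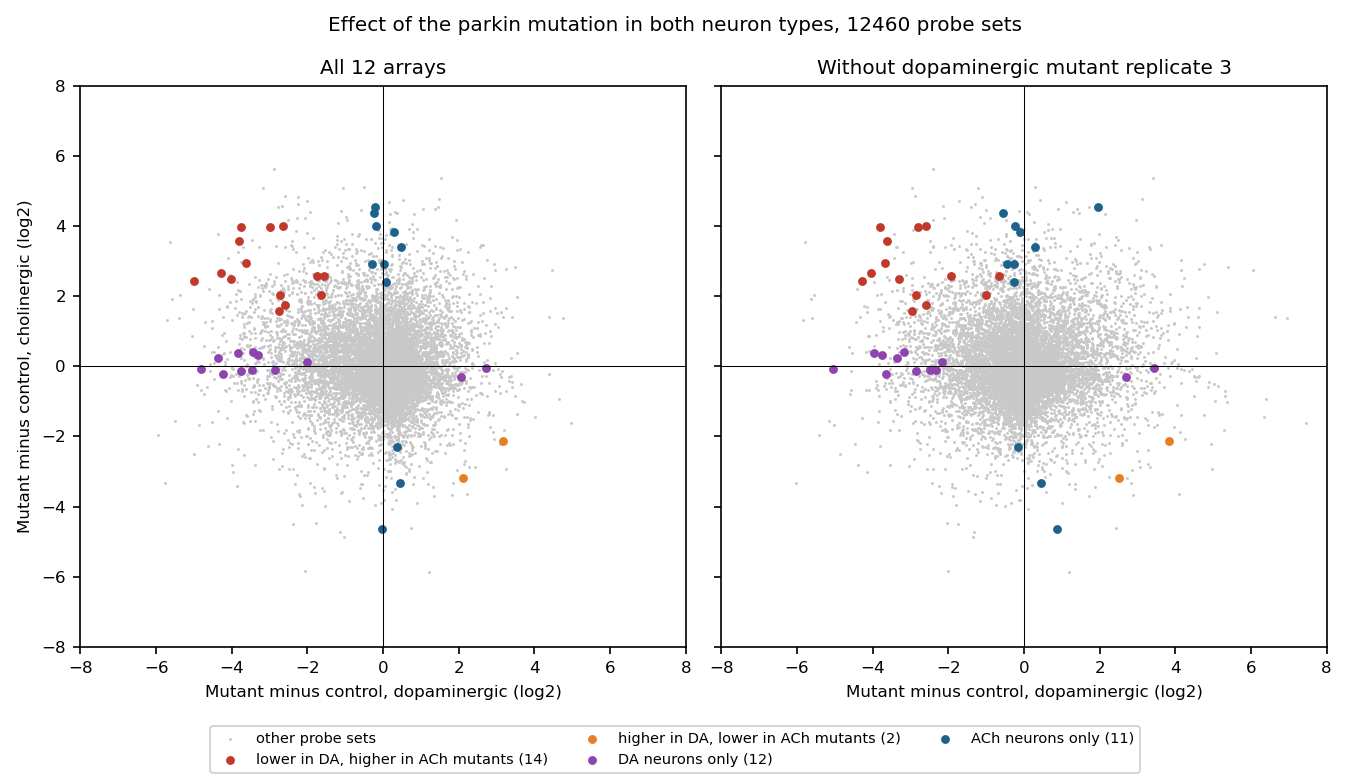
Effect of the parkin mutation (mutant minus control, log2) in dopaminergic neurons (DA, x axis) and in cholinergic neurons (ACh, y axis) for 12460 probe sets, with all 12 arrays (left) and without dopaminergic mutant replicate 3 (right). Grey points are all other probe sets, and coloured points are the probe sets chosen for opposite effects (14 and 2) or for an effect in 1 type (12 and 11), which were picked on these values; the cloud has no slope (r = −0.098 and −0.001).

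Large opposite effects were mostly of 1 orientation, but that depended on the arrays used. Effects of at least 1.5 (log2) in each type and of opposite sign were measured for 300 probe sets (2.41%). Of these, 262 (2.1%) were lower in dopaminergic and higher in cholinergic mutants, and 38 (0.305%) were the other way round. Effects of at least 1.5 in the same direction in both types were measured for 197 (1.58%). Without dopaminergic mutant replicate 3 the opposite count was 279 (2.24%), of which 199 (1.6%) were lower and 80 (0.642%) higher in dopaminergic mutants, and same-direction effects were measured for 287 (2.3%). On the 5 arrays whose title codes begin with E, which cover all 4 groups but replicate only cholinergic mutants, the counts were 247 and 306. By overlap rather than size the order also turned. Mutants and controls did not overlap in either type, with opposite direction, for 83 probe sets (0.666%), of which 20 (0.161%) were lower and 63 (0.506%) higher in dopaminergic mutants. Separation in the same direction in both types was measured for 38 (0.305%), 22 with mutants higher (0.177%) and 16 with mutants lower (0.128%).

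The opposite pattern was then narrowed to effects of at least 1.5 in each type, no overlap in either type, and signs kept without dopaminergic mutant replicate 3. These conditions left 16 probe sets (0.128%), 14 lower (0.112%) and 2 higher (0.0161%) in dopaminergic mutants. Of the 14, 10 had a single gene symbol, and of the 2, 1 had. Values chose these genes, so their separation is a description. None passed the test of the difference (adjusted p 0.326 to 0.773).

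Among the narrowed set were genes of chromatin and RNA processing. Spps, a zinc finger protein that binds Polycomb response elements, measured 4.85, 8.88 and 6.37 (log2) in dopaminergic mutants, against 10.01, 10.1 and 11.38 in dopaminergic controls. In cholinergic neurons it measured 11.12, 9.27 and 10.18 in mutants, against 6.23, 5.5 and 8.1 in controls. Thus mutant dopaminergic neurons had about the level of control cholinergic neurons, and the reverse. The difference of effects was −7.38 ± 1.54 (SE; limma adjusted p = 0.54), and −7.21 without dopaminergic mutant replicate 3. Pnn, the fly counterpart of the splicing protein pinin, measured 5.11, 8.14 and 4.51 in dopaminergic mutants and 10.88, 9.83 and 9.07 in dopaminergic controls. The cholinergic values of Pnn were 11.18, 11.21 and 9.99 in mutants and 7.62, 8.15 and 9.1 in controls. Its difference was −6.51 ± 1.41. In Spps and Pnn dopaminergic mutant replicate 2 was the highest mutant array of its type, yet below every control.

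rgn, a gene named for its part in the regeneration of imaginal discs, had the smallest unadjusted p of all named genes (5e-05; limma adjusted p = 0.326). Its level was 6.76, 8.32 and 7.02 in dopaminergic mutants, against 10.73, 11.28 and 9.04 in dopaminergic controls. In cholinergic mutants it was 10.43, 10.37 and 10.26, against 6.05, 6.1 and 6.99 in cholinergic controls. The 3 cholinergic mutant arrays lay close together, and all 12 arrays of rgn reached the median of the array. The effects were −2.98 in dopaminergic and 3.98 in cholinergic neurons, a difference of −6.96 ± 1.09 (−6.78 without dopaminergic mutant replicate 3, −4.05 on the E-coded arrays).

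mod(mdg4), a chromatin insulator protein with many isoforms made by trans-splicing, was represented by 19 probe sets. The probe set with opposite effects measured 8.22, 8.42 and 6.37 in dopaminergic mutants, against 9.31, 9.42 and 9.23 in dopaminergic controls. It measured 10.21, 9.7 and 8.34 in cholinergic mutants, against 6.95, 7.81 and 7.42 in cholinergic controls, for a difference of −3.68 ± 1.08. Another probe set had nearly all of its difference in cholinergic neurons, with effects of −0.58 in dopaminergic and 4.46 in cholinergic neurons and a difference of −5.04 ± 0.95 (limma adjusted p = 0.375). Over the 19 probe sets of mod(mdg4) the difference was below 0 for 15 and above 0 for 4, with a median of −0.96 and a range from −5.84 to 2.05. The SE of these differences ran from 0.56 to 2.91, and whether the probe sets measured 1 common effect was not tested.

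Among membrane proteins of neurons, the L-type calcium channel gene Ca-alpha1D measured 5.6, 7.84 and 6.82 in dopaminergic mutants, against 8.02, 11.49 and 11.63 in dopaminergic controls. In cholinergic neurons Ca-alpha1D measured 11.34, 11.56 and 9.34 in mutants, against 7.19, 7.17 and 9.01 in controls. In both types the nearest mutant and control arrays were close, at 7.84 and 8.02 and at 9.34 and 9.01. The difference of effects was −6.59 ± 1.61 (limma adjusted p = 0.692). Dyb, the dystrobrevin of the dystrophin complex, had effects of −5.01 in dopaminergic and 2.42 in cholinergic neurons and a difference of −7.43 ± 1.75. Its cholinergic controls were uneven (8.25, 4.3 and 8.26), and the mutants measured 8.89, 10.6 and 8.59.

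The amine receptor genes Oct-TyrR and Dop1R1 were among the opposite genes. Of the 13 measured amine receptors, 8 had a difference below 0 and 5 above 0. The median of that list was −1.75, and −0.19 without dopaminergic mutant replicate 3. Oct-TyrR, which encodes an octopamine and tyramine receptor, measured 4.58, 5.38 and 5.6 in dopaminergic mutants, against 6.66, 8.31 and 8.84 in dopaminergic controls. It measured 5.96, 6.21 and 6.77 in cholinergic mutants, against 4.73, 4.48 and 4.96 in cholinergic controls. These levels were lower than those of the preceding genes relative to their own arrays, and 6 of 12 arrays were below the array median. Those were the 3 dopaminergic mutants and the 3 cholinergic controls. The filter therefore kept Oct-TyrR only through the groups where it was high, and both effects were read against dim values. The difference of −4.33 ± 0.78 (limma adjusted p = 0.326) was −4.54 without dopaminergic mutant replicate 3 and −4.98 on the E-coded arrays. Dop1R1, a D1-like dopamine receptor, measured 8.25, 8.02 and 4.85 in dopaminergic mutants, against 8.31, 8.64 and 9.42 in dopaminergic controls. Its dopaminergic effect was −1.75 with all arrays and −0.66 without dopaminergic mutant replicate 3, so that array alone carried most of it. The cholinergic values of Dop1R1 were 10.55, 9.83 and 10.89 in mutants and 8.47, 8.64 and 6.39 in controls, and the difference of effects was −4.34 ± 1.42 (−3.25 without that array).

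The kinase gene fray, which acts on cation-chloride cotransporters, and the cytochrome P450 gene Cyp4p2 completed the genes lower in dopaminergic mutants, with differences of −4.13 ± 1.13 and −6.93 ± 1.52. For fray only 5 of 12 arrays were at or above the array median. The difference of Cyp4p2 was −1.8 on the E-coded arrays, less than elsewhere, and its cholinergic mutants (9.29, 9.86 and 9.37) cleared the highest cholinergic control (8.99) by little. In the other orientation the single named gene was CG14074, which measured 6.7, 9.64 and 6.17 in dopaminergic mutants, against 3.98, 4.36 and 4.67 in dopaminergic controls. It measured 4.53, 3.95 and 3.62 in cholinergic mutants, against 5.25, 5.53 and 7.72 in cholinergic controls. The difference of CG14074 was 5.3 ± 1.27 (limma adjusted p = 0.665). Only 3 of the 12 arrays were at or above their median, the fewest that the filter allows, and all were in the groups where CG14074 was high. The named members nearest the size limit were fray (1.5668 in its smaller effect) and Oct-TyrR (1.588), and just outside lay CG34198 (1.4745), jdp (1.441) and CG32259 (1.3891).

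**Figure D2:**
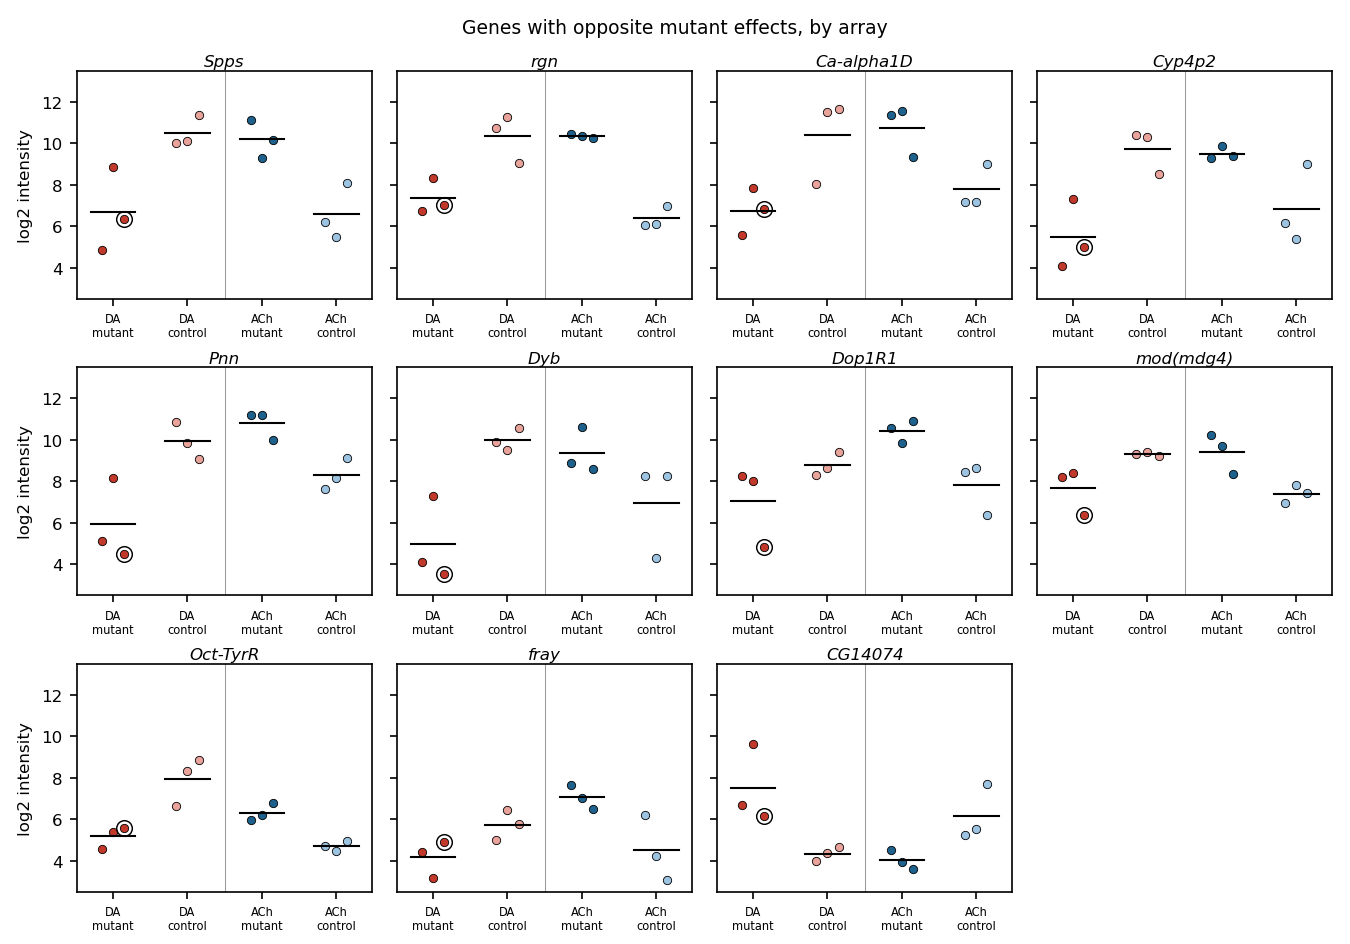
Levels (log2 intensity, y axis) on each array for the 11 named probe sets chosen for opposite effects; DA is dopaminergic and ACh cholinergic, points are arrays, bars are group means of 3 arrays, and the circled point is dopaminergic mutant replicate 3. In the first 10 panels all dopaminergic mutants lie below their controls and all cholinergic mutants above theirs, and CG14074 has the other orientation, as the choice required.

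Effects in dopaminergic neurons alone were described for genes with an effect of at least 2 without overlap in that type and an effect under 0.5 in size in the other, where 4 or more of the 6 cholinergic arrays were at or above the array median. The difference had an unadjusted p under 0.05 with and without dopaminergic mutant replicate 3. These conditions left 12 probe sets (0.0963%), 2 higher (0.0161%) and 10 lower (0.0803%) in mutants, of which 7 had a single symbol. A further 8 (0.0642%), 6 higher (0.0482%) and 2 lower (0.0161%), met all conditions but the last, so that their small cholinergic effects rest on dim values. None of the 12 passed the test of the difference (adjusted p 0.697 to 0.773).

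trus measured 6.02, 6.38 and 6.59 in dopaminergic mutants, against 10.77, 10.27 and 9.45 in dopaminergic controls. On the cholinergic arrays trus measured 8.05, 6.24 and 5.42 in mutants and 5.6, 7.17 and 5.78 in controls, which overlap. The difference of effects for trus was −4.22 ± 1.04, and −4.35 without dopaminergic mutant replicate 3. trus and Polr2M, the gene of an RNA polymerase II associated protein, had dopaminergic mutants at about the level of cholinergic neurons, and it was the dopaminergic controls that stood apart. Polr2M measured 6.83, 5.93 and 6.88 in dopaminergic mutants and 8, 8.54 and 9.14 in dopaminergic controls, with 6.12 to 6.84 on all 6 cholinergic arrays. Its difference was −2.13 ± 0.68.

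Yeti, a chromatin protein gene of the BCNT family, had the reverse arrangement, in which the dopaminergic mutants stood apart from the other groups. It measured 7.27, 9.5 and 5.72 in dopaminergic mutants, 11.98, 11.21 and 10.57 in dopaminergic controls, and 11.05 to 11.6 on the 6 cholinergic arrays. The difference of Yeti was −3.64 ± 1.28, and −1.03 on the E-coded arrays. The heparan sulfate sulfotransferase gene Hs3st-A measured 4.16, 7.09 and 3.86 in dopaminergic mutants, against 8.77, 9.81 and 9.24 in dopaminergic controls. On the cholinergic arrays it measured 8.02, 8.64 and 5.77 in mutants and 8.35, 6.65 and 8.05 in controls, so that dopaminergic mutant replicate 2 overlapped with the cholinergic groups. Its difference was −4.02 ± 1.39 (−1.3 on the E-coded arrays). In both genes dopaminergic mutant replicate 2, which had the most bright probe sets of its group, was the highest mutant array. For 2mit, which encodes a membrane protein with leucine-rich repeats, the difference was −3.86 ± 1.29, while its other probe sets gave −1.85 and 0.74. Slbp, whose product binds the stem-loop of histone mRNAs, was the single named gene measured higher. It had 10.85, 8.9 and 7.69 in dopaminergic mutants, against 5.96, 7.31 and 6.02 in dopaminergic controls, and 5.65 to 7.42 on the cholinergic arrays, with a difference of 2.77 ± 1.17.

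In cholinergic neurons alone, the same conditions with the types exchanged left 11 probe sets (0.0883%), 8 higher (0.0642%) and 3 lower (0.0241%) in mutants, of which 4 had a single symbol. A further 32 (0.257%), 24 higher (0.193%) and 8 lower (0.0642%), lacked only the signal in dopaminergic neurons. sNPF-R, the receptor of the short neuropeptide F, measured 12.19, 11.72 and 10.76 in cholinergic mutants, against 5.79, 6.06 and 9.72 in cholinergic controls. On the dopaminergic arrays it measured 5.77, 7.45 and 7.52 in mutants and 6.24, 7.08 and 8.18 in controls. Cholinergic mutants were thus the group apart for sNPF-R, and the difference of effects was −4.62 ± 1.52 (limma adjusted p = 0.773). mrj, a co-chaperone of the DnaJ family, had effects of −0.04 in dopaminergic and −4.64 in cholinergic neurons, and a difference of 4.6 ± 1.7. It measured 4.23, 7.56 and 3.77 in cholinergic mutants, against 10.61, 9.52 and 9.35 in cholinergic controls.

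Top3beta, a topoisomerase gene, measured higher in cholinergic mutants by 2.4, with a difference of −2.33 ± 0.87, and its other probe set gave −1.25. Of these named genes, the Eph receptor gene Eph departed most from the pattern without dopaminergic mutant replicate 3. It measured 12.67, 12.51 and 6.12 in dopaminergic mutants, against 11.91, 9.35 and 10.65 in dopaminergic controls, so that its dopaminergic effect of −0.2 became 1.95 without the low array. The cholinergic effect of Eph was 4.56, and its difference was −4.76 with all arrays and −2.61 without that array. Without the array the dopaminergic effect was also past the limit of 0.5 for mrj (0.88) and sNPF-R (−0.55). Only Top3beta stayed within it (−0.26).

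**Figure D3:**
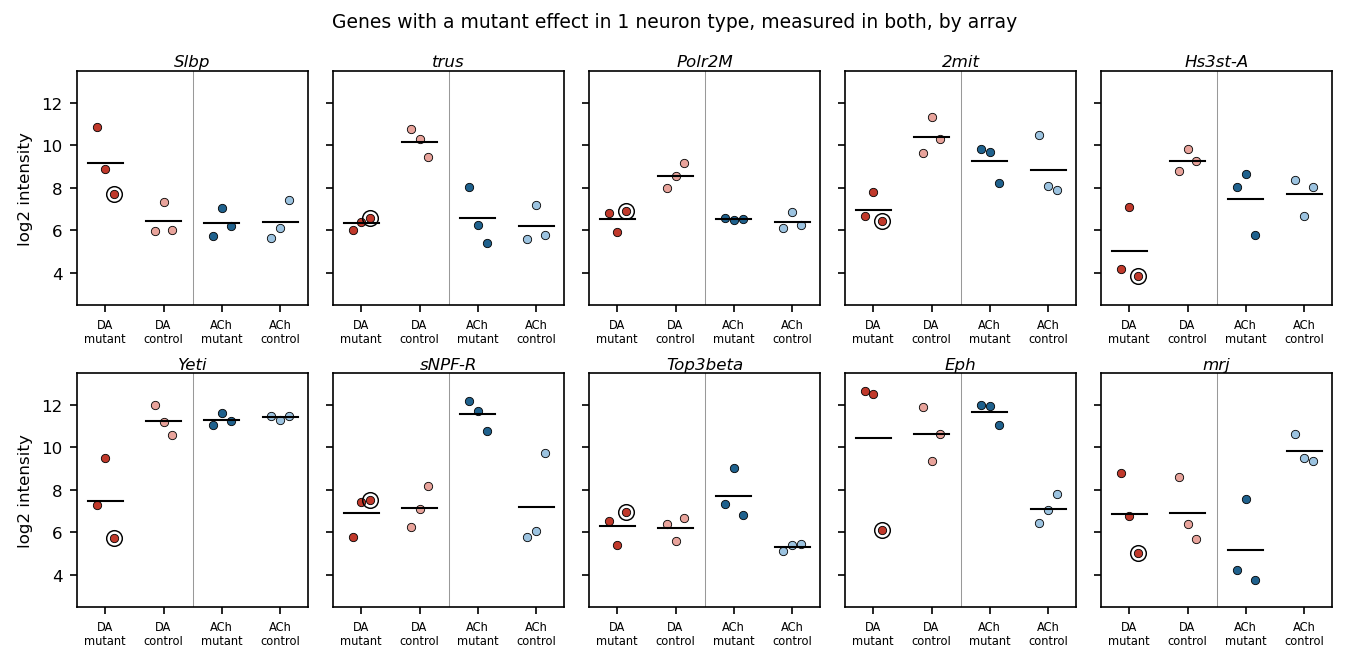
Levels (log2 intensity, y axis) on each array for the 10 named probe sets chosen for an effect in 1 neuron type; DA is dopaminergic and ACh cholinergic, points are arrays, bars are group means of 3 arrays, and the circled point is dopaminergic mutant replicate 3. The genes from Slbp to Yeti separate dopaminergic mutants from controls, and those from sNPF-R to mrj separate cholinergic mutants from controls; in Eph the circled array (6.12) lies far below the other dopaminergic mutants.

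Ranked by the test of the difference itself, several of the leading genes owed their place to cholinergic neurons and were dim elsewhere. CG32246 measured 7.98, 8.41 and 8.98 in cholinergic mutants and 3.49 to 4.77 on the 9 other arrays. Its cholinergic effect of 4.75 passed (limma adjusted p = 0.0103), whereas its difference of −4.21 ± 0.68 did not (adjusted p = 0.326). With title code letters as a block no probe set passed for the cholinergic effect, so that call was lost. None of the 6 dopaminergic arrays of CG32246 reached the array median. The filter on dim probe sets asks for 3 arrays at the median, and only the cholinergic mutants, where CG32246 was high, met it. Its entry to the test therefore depended on that group. The noncoding transcript lncRNA:CR33942 was alike, with 8.08, 7.79 and 9.11 in cholinergic mutants, 5.09, 4.66 and 4.82 in cholinergic controls and 4.5 to 5.64 on the dopaminergic arrays, and a difference of −3.32 ± 0.66 (limma adjusted p = 0.509).

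In the other direction E(spl)m5-HLH, a repressor of the Notch pathway, measured 4.43, 4.32 and 5.59 in cholinergic mutants, against 9.82, 8.93 and 7.75 in cholinergic controls. Its 6 dopaminergic arrays lay at 4.44 to 5.09, all below the array median, and the difference of effects was 4.28 ± 0.78 (limma adjusted p = 0.326). For Vps11, part of the tethering complexes of endosomes and lysosomes, mutants were below controls in both types. It measured 3.42, 3.42 and 3.23 in dopaminergic mutants, against 4.94, 5.67 and 5.67 in dopaminergic controls, and 3.15, 3.64 and 4.02 in cholinergic mutants, against 10.14, 10.53 and 7.67 in cholinergic controls. The difference of Vps11, 3.77 ± 0.96 (limma adjusted p = 0.744), is thus one of size and not of direction, and no dopaminergic array reached its median. E(spl)m5-HLH and Vps11 were kept by the filter only through the cholinergic controls, where they were high. fs(1)K10, known for mRNA localisation in the oocyte, had a difference of 7.08 ± 1.68, with 4.85, 4.7 and 7.37 in cholinergic mutants and 11.99, 11.99 and 10.5 in cholinergic controls. The inositol polyphosphate kinase gene l(1)G0196 gave 3.86 ± 1.02 at this probe set, while its other probe sets gave −0.42, 0.62 and 1.46. At this probe set it measured 6.23, 4.44 and 4.53 in cholinergic mutants, against 7.6, 9.11 and 10.22 in cholinergic controls. Its dopaminergic arrays lay at 3.18 to 4.54, all below the array median, so the filter kept it only through cholinergic arrays.

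Of the 8 genes ranked highest above 0, CG14074, eIF3g2 and Tsp42El had the larger of their 2 effects in dopaminergic neurons, with all arrays. CG14074, described above, had effects of 3.16 in dopaminergic and −2.14 in cholinergic neurons. The translation initiation factor gene eIF3g2 measured 7.03, 8.49 and 8.31 in dopaminergic mutants, against 5.93, 6.05 and 6.2 in dopaminergic controls. On the cholinergic arrays it measured 5.79, 6.07 and 5.15 in mutants and 5.99, 6.6 and 6.04 in controls, and the difference was 2.43 ± 0.65 (limma adjusted p = 0.773). The tetraspanin gene Tsp42El measured 7.15, 7.06 and 7.3 in dopaminergic mutants, against 5.18, 5.23 and 5.41 in dopaminergic controls, with little spread in either group. Its cholinergic arrays lay at 4.49 to 5.71, all below the array median, and its difference was 2.14 ± 0.57. The filter kept Tsp42El only through the dopaminergic mutants, where it was high. The adaptor gene CAP differed by 2.52 ± 0.7. Below 0, CG7058 had the greatest size among the 16 genes ranked highest by this test, −8.25 ± 1.47 (limma adjusted p = 0.326), with 7.92, 9.96 and 9.11 in cholinergic mutants, against 3.01, 3.32 and 5.41 in cholinergic controls. The dopaminergic arrays of CG7058 overlapped, because replicate 2 of the mutants (6.43) exceeded replicate 2 of the controls (6.28). The zinc finger gene woc had a difference of −7.19 ± 1.48, its dopaminergic groups not overlapping (7.33, 6.98 and 5.17 in mutants, against 10.7, 9.88 and 11.21 in controls) and its cholinergic groups overlapping by 1 array (7.82 in a mutant and 7.85 in a control).

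**Figure D4:**
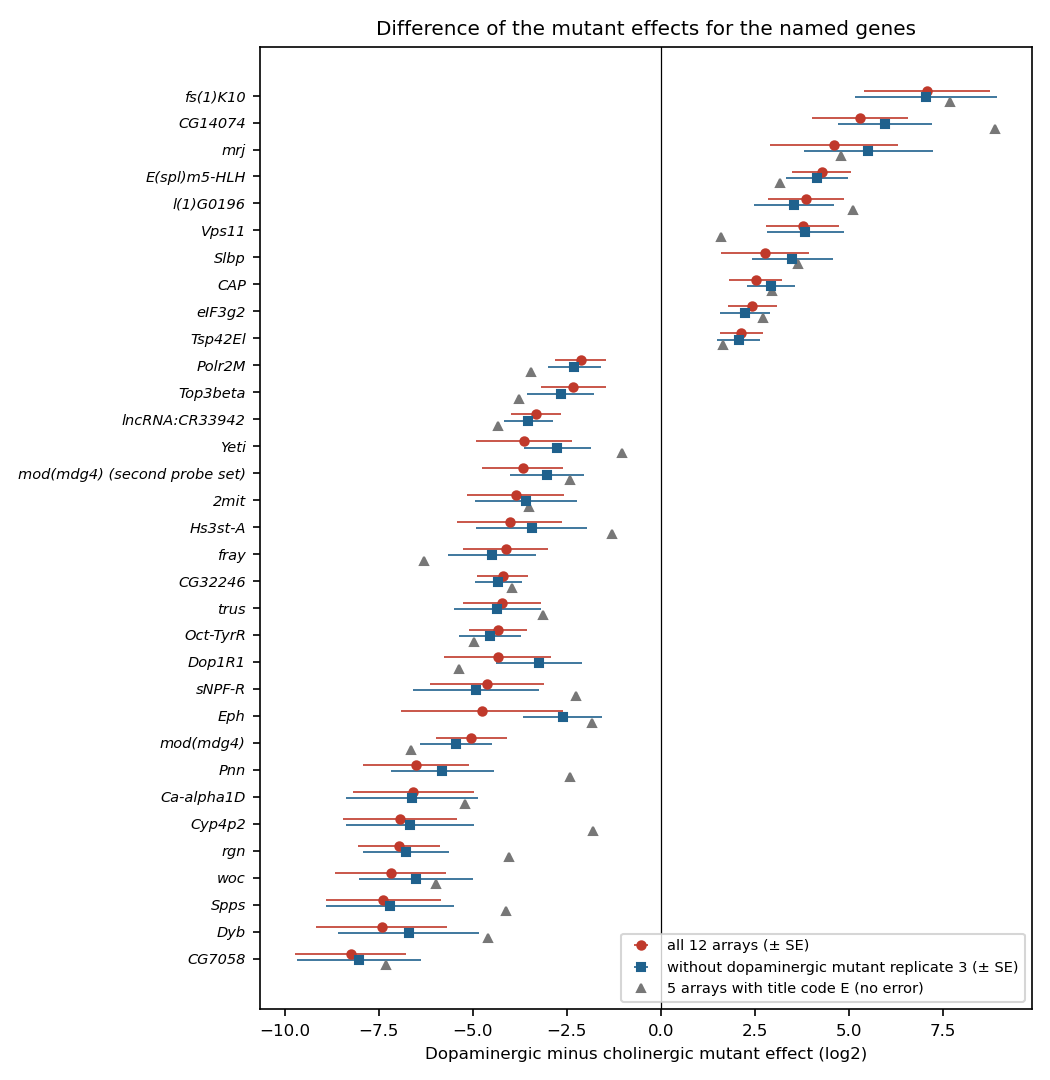
Difference of the mutant effects (dopaminergic minus cholinergic, log2, x axis) for the named probe sets, in rows from the highest to the lowest value; for mod(mdg4) the row marked as the second probe set is the one with opposite effects. Circles are the value with all 12 arrays and squares the value without dopaminergic mutant replicate 3, each ± SE from limma. Triangles are the value on the 5 arrays with E codes, which has no error. Every gene shown keeps its sign in all 3, although none passed the test. The genes were picked on these values, and the E-coded arrays are among the 12, so the kept signs add no support.

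Gene lists were compared by their median difference of effects, beside a median of 0.16 over 7612 genes (0.1 without dopaminergic mutant replicate 3, −0.2 on the E-coded arrays). Of those genes, 4166 (54.7%) had a difference above 0 and 3446 (45.3%) below 0, the shares to set beside the list counts. At an unadjusted limma p under 0.05, 147 were above 0 and 262 below 0. The medians of 26 pathway lists were below 0 for 20 lists and above 0 for 6. They were below 0 for 15 lists without dopaminergic mutant replicate 3 and for 12 lists on the E-coded arrays, and below 0 in all 3 for 6 lists. Those 6 were complexes II to V, mitochondrial chaperones and proteases, autophagy and lysosome, nicotinic acetylcholine receptor subunits, amine receptors, and JNK signalling and apoptosis. On the E-coded arrays the last 3 were near the median of all genes (−0.2), at −0.32, −0.25 and −0.16. No member of any list passed the test of the difference.

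In the PINK1-parkin pathway and mitochondrial dynamics 12 of 16 measured genes had a difference below 0 and 4 above 0, with a median of −0.77 (−0.52 without dopaminergic mutant replicate 3 and 0.3 on the E-coded arrays). The ubiquitin ligase gene Mul1, which acts in parallel to PINK1 and parkin in flies, was the only member at an unadjusted p under 0.05, and it lay on the other side. It measured 7.03, 6.47 and 7.53 in dopaminergic mutants, against 6.21, 6.33 and 5.89 in dopaminergic controls, and 6.43, 5.53 and 4.89 in cholinergic mutants, against 5.92, 6.56 and 6.29 in cholinergic controls. The cholinergic groups of Mul1 overlapped, and the difference was 1.51 ± 0.65 (limma adjusted p = 0.773).

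In the respiratory chain, complex I had 13 genes above 0 (48.1%) and 14 below 0 (51.9%), near the shares over all genes. Its median was −0.14, with 0.23 without dopaminergic mutant replicate 3 and −0.65 on the E-coded arrays. Complexes II to V had 10 above (32.3%) and 21 below (67.7%), with a median of −0.49. That median was −0.5 without dopaminergic mutant replicate 3 and −0.72 on the E-coded arrays. The complex I subunit gene ND-13A measured 5.62, 5.1 and 6.4 in dopaminergic mutants, against 5.66, 6.39 and 7.12 in dopaminergic controls. It measured 7.77, 9.63 and 8.67 in cholinergic mutants, against 7.4, 6.2 and 5.78 in cholinergic controls. The cholinergic groups of ND-13A did not overlap and the dopaminergic ones did, with a difference of −2.91 ± 0.92. The cytochrome c oxidase subunit genes COX5A and COX7B differed by −3.1 ± 1.18 and −5.15 ± 1.86, and the other probe set of COX7B by −1.06. In the TCA cycle list (5 above, 9 below; median −1.05, −0.99 without dopaminergic mutant replicate 3 and 1.07 on the E-coded arrays) the succinyl-CoA ligase gene Scsalpha1 differed by −3.32 ± 1.04.

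Mitochondrial ribosomal proteins measured the other way, with 38 of 56 genes above 0, 18 below 0 and a median of 0.65. The median was 0.12 without dopaminergic mutant replicate 3, about that of all genes, and −0.52 on the E-coded arrays. mRpL20 owed its difference of 3.75 ± 1.1 to cholinergic neurons, where it measured 4.64, 4.36 and 4.62 in mutants, against 10.3, 7.04 and 8.17 in controls. mRpL11 and mRpL14 differed by 1.5 ± 0.57 and 1.55 ± 0.63. Antioxidant and glutathione genes had 17 above 0 and 7 below 0 (median 0.54; 0.41 without that array and −0.17 on the E-coded arrays). The glutathione transferase gene GstE12 measured 6.93, 6.07 and 7.44 in dopaminergic mutants, against 5.67, 5.47 and 5.63 in dopaminergic controls, and 5.38, 5.27 and 4.74 in cholinergic mutants, against 5.48, 6.31 and 5.76 in cholinergic controls. Neither type overlapped for GstE12, with mutants above controls in dopaminergic and below them in cholinergic neurons, and the difference was 1.95 ± 0.61 (limma adjusted p = 0.773).

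Among genes of autophagy and the lysosome, 8 of 25 had a difference above 0 and 17 below 0 (median −0.52; −0.56 without dopaminergic mutant replicate 3 and −1.09 on the E-coded arrays). Atg1, the kinase that starts autophagy, measured 4.92, 6.58 and 5.83 in dopaminergic mutants, against 8.68, 10.95 and 7.06 in dopaminergic controls. It measured 8.05, 10.52 and 10.41 in cholinergic mutants, against 9.33, 8.73 and 7.88 in cholinergic controls, which overlap. The difference of Atg1 was −4.13 ± 1.5, and −4.15 without dopaminergic mutant replicate 3. Atg8a, the protein that coats the autophagosome membrane, had its effect in cholinergic neurons (11.82, 11.22 and 11.44 in mutants, against 10.56, 9.07 and 6.82 in controls), and a difference of −3.21 ± 1.44. Of the V-ATPase genes, 8 were above and 13 below 0 (median −1.05; −0.51 without dopaminergic mutant replicate 3 and 0.59 on the E-coded arrays), with VhaAC45 at −4.61 ± 1.56.

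In synaptic vesicle release 15 of 17 genes (88.2%, against 45.3% of all genes) had a difference below 0 and 2 above 0, with a median of −1.95. It was −0.73 without dopaminergic mutant replicate 3 and 0.49 on the E-coded arrays. Rop, the fly Munc18 protein of vesicle fusion, was the 1 member at an unadjusted p under 0.05, with a difference of −2.27 ± 1.03. The median level of the list was 6.1, 10.21 and 5.61 in dopaminergic mutants, against 8.82, 9.55 and 10.02 in dopaminergic controls, so that replicates 1 and 3 were low. Pan-neuronal markers, of which 6 of 7 were measured, were also low on dopaminergic mutant replicate 3, while replicate 1 was near the lowest control. Their median level was 10.21, 10.87 and 5.93 in dopaminergic mutants and 11.08, 10.87 and 10.24 in dopaminergic controls, against 10.72 to 11.19 in cholinergic mutants and 9.67 to 11.08 in cholinergic controls, and their part in the list was not tested. Among nicotinic receptor subunits (2 above, 6 below; median −0.81, and −0.43 without dopaminergic mutant replicate 3), nAChRbeta1 measured 7.33, 9.34 and 5.06 in dopaminergic mutants, against 10.51, 10.51 and 11.73 in dopaminergic controls. It measured 10.87, 11.2 and 11.12 in cholinergic mutants, against 8.88, 10.69 and 10.73 in cholinergic controls. Neither type overlapped for nAChRbeta1, and the difference was −4.63 ± 1.48, with −4.5 at its other probe set. Activity or dissociation genes were below 0 in 8 of 8 cases (median −2.44), with −1.24 without dopaminergic mutant replicate 3 and 0.2 on the E-coded arrays.

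Markers of cell types were read in the same way. Since each pool is measured in bulk, fewer cells of a type and less RNA per cell cannot be told apart. The 5 measured genes of dopamine synthesis and handling all had a difference below 0, with a median of −1.77. That median was −0.08 without dopaminergic mutant replicate 3 and 0.4 on the E-coded arrays. This was not particular to dopamine genes. The 4 genes of acetylcholine synthesis and handling were also all below 0 (median −2.43, with −1.33 and 1.47 in the same order). Of the 6 pan-neuronal markers measured, 5 were below 0 and 1 above (median −1.38, with 0.0 and 0.45). The transcription factor gene Fer2, needed by dopaminergic neurons, measured 6.84, 9.59 and 6.92 in dopaminergic mutants, against 10.31, 9.59 and 10.82 in dopaminergic controls, and 5.05 to 6.72 on the cholinergic arrays. Its difference was −3.19 ± 1.09 (limma adjusted p = 0.773), and −2.76 without that array. In Fer2 it was replicates 1 and 3 of the mutants that were low, and replicate 2 was at the level of a control.

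Markers of Kenyon cells, the intrinsic neurons of the mushroom body, kept a median difference below 0 in every set of arrays used, at −2.09 with all arrays, −1.7 without dopaminergic mutant replicate 3 and −0.99 on the E-coded arrays. The same held for glial markers (−0.81, −0.49 and −1.72) and for the 3 dopaminergic transcription factor genes (−1.74, −0.89 and −0.63). Of the 8 Kenyon cell genes measured of 10, 7 were below 0. The median level of the Kenyon cell list was 6.78, 7.51 and 6.72 in dopaminergic mutants, against 8.14, 8.75 and 7.86 in dopaminergic controls. It was 9.22, 8.48 and 9.62 in cholinergic mutants, against 8.39, 7.56 and 7.47 in cholinergic controls. The list level therefore had no overlap and opposite direction in the 2 types, like the opposite genes, and 1 member, Dop1R1, is among those genes. Its part in their values was not tested. The 4 genes of the GABA and glutamate list did not share a direction. Their median difference was 2.06 (3.23 without dopaminergic mutant replicate 3, 4.73 on the E-coded arrays), with 2 above 0 and 2 below 0. The vesicular GABA transporter gene VGAT differed by −1.03 ± 2.31 and the GABA uptake transporter gene Gat by 5.57 ± 2.61. Gat measured 12.15, 9.24 and 5.43 in dopaminergic mutants, against 4.74, 3.71 and 4.43 in dopaminergic controls. The vesicular glutamate transporter gene VGlut, the member with the smallest p, measured 8.42, 9.52 and 4.99 in dopaminergic mutants, against 4.9, 4.9 and 4.31 in dopaminergic controls. It measured 7.78, 5.58 and 6.14 in cholinergic mutants, against 5.07, 9.03 and 11.65 in cholinergic controls, a difference of 5.02 ± 2.14, with −0.07 at its other probe set.

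Glial markers (7 measured of 11, repo below the filter) had a median difference of −0.81. It was −0.49 without dopaminergic mutant replicate 3 and −1.72 on the E-coded arrays. The median level of glial markers ran from 4.47 to 7.32 in dopaminergic mutants and 5 to 7.74 in dopaminergic controls. It ran from 7.1 to 8.14 in cholinergic mutants and 5.04 to 8.36 in cholinergic controls. The medians of the difference were 0.62 for photoreceptor, 0.19 for fat body and 0.83 for muscle markers. Without dopaminergic mutant replicate 3 they were 0.12 for photoreceptor, 0.16 for fat body and 0.4 for muscle markers. On the E-coded arrays their direction turned, with −0.14 for photoreceptor, −0.3 for fat body and −0.49 for muscle markers. The photoreceptor gene chp, an adhesion protein of the rhabdomere, differed by −5.96 ± 2.19, against the direction of its list. With all arrays the medians were −0.03 for voltage-gated channels, 0.08 for adhesion genes of the dpr, DIP, beat and side families, 0.14 for the proteasome, 0.05 for innate immune genes and 0.15 for the ATF4 list. Without dopaminergic mutant replicate 3 the channels were at 0.29, the adhesion genes at 0.0, the proteasome at −0.19, innate immune genes at 0.71 and the ATF4 list at 0.64, which was at 0.8 on the E-coded arrays. Heat shock and cytosolic chaperones (median −1.17) were at 0.07 without dopaminergic mutant replicate 3.

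**Figure D5:**
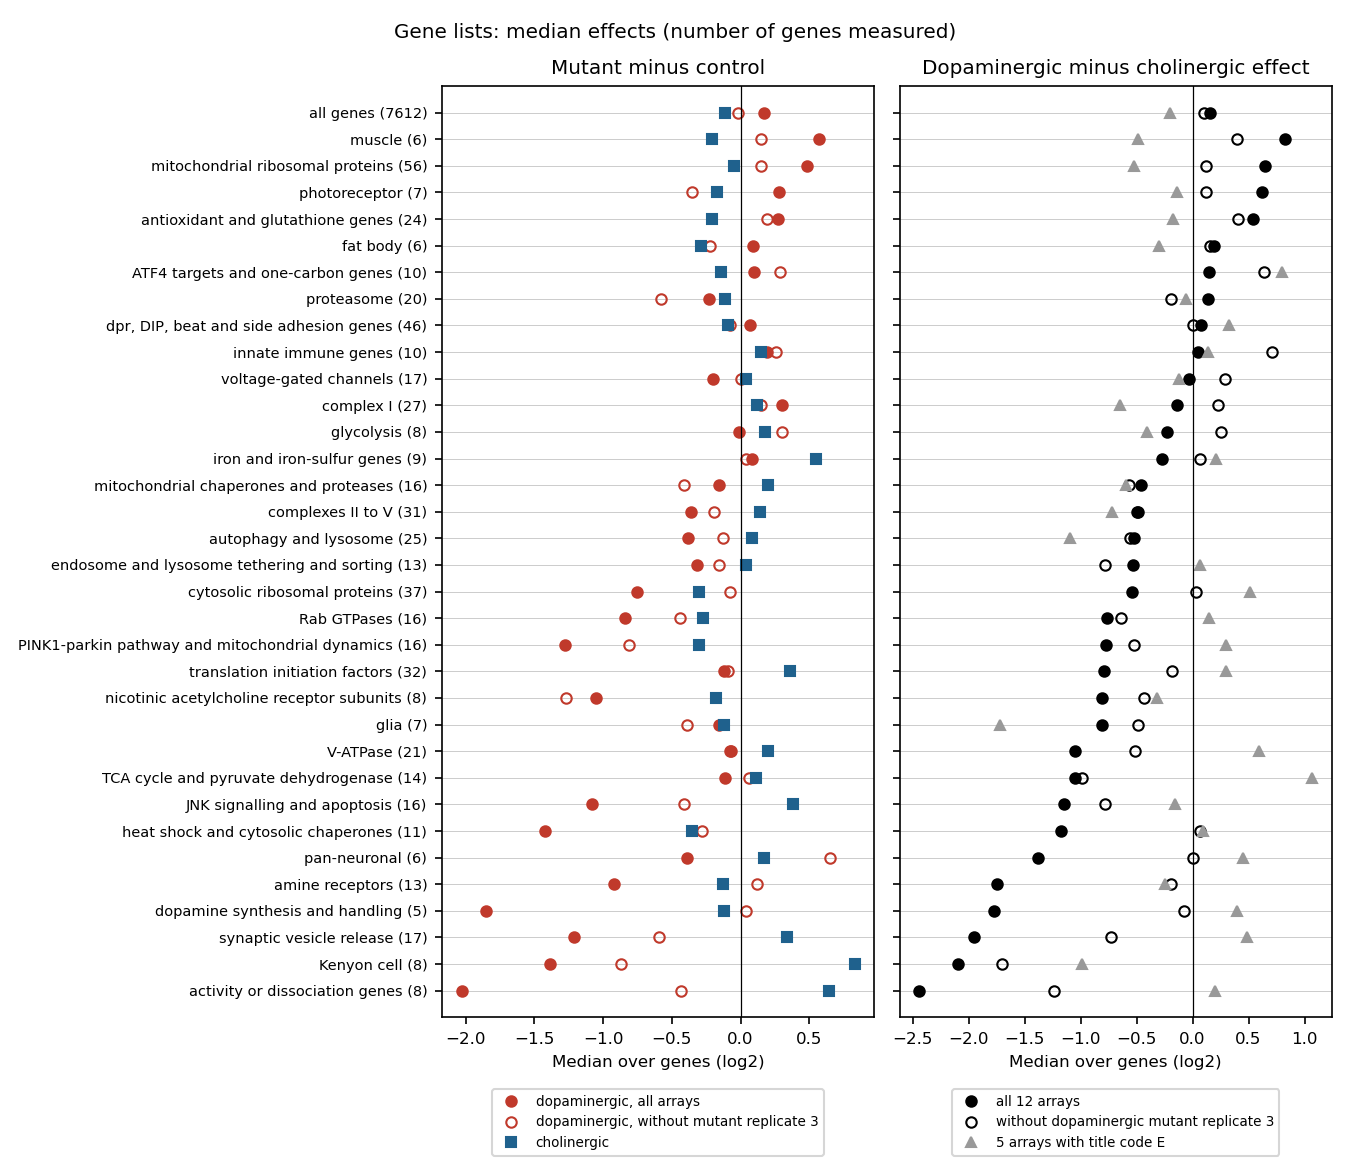
Median over the measured genes of each list (number of genes in brackets) of the mutant effect in each neuron type (left) and of the difference of effects (right), log2, for lists with at least 5 measured genes. Filled circles use all 12 arrays and open circles leave out dopaminergic mutant replicate 3, squares are cholinergic neurons and triangles the 5 E-coded arrays, with no error shown; lists at the bottom move towards 0 without that array, and the Kenyon cell list moves least among the 3 lowest.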

How the data were processed

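RNA of 12 pools of sorted neurons was amplified, and biotin-labelled cDNA was hybridised to 1 Affymetrix Drosophila 2.0 array per pool, per the labels' protocols. The values deposited by the authors were log2 intensities per probe set. The method of normalization and summary is not given in the sources used here, and values were used as deposited. Of 18952 probe sets, 183 control probe sets were left out, and 12460 were kept, which reached the array median on 3 or more arrays. Symbols came from the platform annotation (13647 probe sets with 1 symbol, 402 with several, 4720 with none), of which 13544 matched the reference gene table. Only probe sets with 1 symbol are named.

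Tests of the effects used limma 3.58.1 under R 4.3.3 (lmFit with 1 coefficient per group over all 12 arrays, eBayes with a trend, 2-sided), and p-values were adjusted by Benjamini-Hochberg over all probe sets kept, at a threshold of 0.05. The script was tested on simulated data. Lists were read over 7612 genes, 1 probe set per gene (the highest mean), with no test. Named were the 8 genes with the smallest p of the difference in each direction, up to 6 genes in each orientation of opposite effects (the rest with a symbol are also given), up to 5 genes per type and direction with an effect in 1 type, up to 3 members per list, and ple, Ddc, Vmat, DAT, Fer2, ChAT, VAChT, elav, nSyb, park and Pink1. The groups, rules and lists were chosen with earlier results of these data known. Replicates were numbered in order within a group and pair nothing. Whether the pools of a group are separate cohorts is not in the labels, so that p-values cover only the spread between arrays, which may be technical, and precision is limited by how few arrays there were. Alternatives were other scalings, filters, variance settings, array weights, title code letters as a block, means of probe sets and leaving out each array. Annotation and plots used Python 3.11.15 with pandas 2.3.3 and matplotlib 3.10.9.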

Additional observations from a re-analysis of the deposited data

Results flagged for a closer look

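For 13 of the 72 named probe sets every mutant array lay on one side of the controls in dopaminergic neurons and on the other side in cholinergic neurons. The difference of the effects was tested for each with limma, and none passed. Across all 12460 probe sets this separation in opposite directions was found for 83 (0.666%). Of these, 20 (0.161%) were lower and 63 (0.506%) higher in dopaminergic mutants, so the named ones do not have the prevailing direction. The differences below 0 (dopaminergic minus cholinergic effect, log2) were −7.43 for Dyb, −7.38 for Spps, −6.96 for rgn, −6.93 for Cyp4p2, −6.59 for Ca-alpha1D, −6.51 for Pnn, −4.63 for nAChRbeta1, −4.34 for Dop1R1, −4.33 for Oct-TyrR, −4.13 for fray and −3.68 for a probe set of mod(mdg4). Those above 0 were 5.3 for CG14074 and 1.95 for GstE12. Most of these genes were chosen for this separation, so it adds no support to them.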

How the results depend on the processing

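No paired analysis was possible because the labels give no replicate numbers to pair arrays by. The letters of the title codes were used as a block instead. The count of probe sets with an adjusted p under 0.05 for the difference of effects was 0 under each scaling, filter, variance and block setting tried and 0 to 3 without each array in turn. It was 3 without dopaminergic mutant replicate 2 (CG13330 at −6.34, MESK2 at −6.97 and 1 without a symbol at 5.74) and 1 without cholinergic mutant replicate 1 (CG32243 at −11.29). The count at an unadjusted p under 0.05 was 1833 with array weights and 1940 without dopaminergic mutant replicate 2, against 645. Array weights rested the dopaminergic mutant side on replicate 1 (weight 4.56, against 0.28 and 0.41). For the dopaminergic effect the count was 524 with array weights, 1 with no filter, and 0 to 74 without each array. For the cholinergic effect (6) it was 0 with title code letters as a block, 0 with a filter at the 65th percentile, 2 without a trend, and 0 to 14 without each array.

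The counts by size were recomputed under alternatives added after seeing the data. Opposite effects with dopaminergic mutants higher (38) were 63 with array weights, 176 with the block and 306 on the E-coded arrays, and 32 to 80 without each array. Those with dopaminergic mutants lower (262) were 199 to 364 without each array. The narrowed set of 14 was 17 to 51 without each array, where fewer arrays can overlap. It was 10 with array weights, 10 with the block, 13 with quantile normalization and 17 with median centring. Effects in dopaminergic neurons only (12) were 23 with array weights and 22 with quantile normalization, and 7 to 27 without each array. Effects in cholinergic neurons only (11) were 7 with the block and 8 to 16 without each array. The cause of these changes was not tested.

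Of 1510 alternative values for 72 named probe sets, 15 reversed in sign, in 5 followed genes. None of the 5 had been singled out as differing, but each was counted above among the list genes with a difference below 0. Vmat (−0.21) was 1.38 with array weights, 3.88 with the block, and −1.53 to 2.33 without each array. The other probe set of Vmat gave −2.61 ± 1.41 with all arrays. With the block DAT was 2.24, ChAT 0.69, elav 0.57 and nSyb 0.25. Without each array ChAT was −2.63 to 0.09 and nSyb −0.3 to 0.18, both highest without dopaminergic mutant replicate 3. nSyb was also 0.14 with array weights and 0.44 with quantile normalization. On the E-coded arrays 63 of the 72 kept their sign.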

Other observations

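The followed neuronal genes that are not described above had small or uneven differences. The difference of effects (dopaminergic minus cholinergic, log2) was −2.98 ± 1.72 (SE) for the decarboxylase gene Ddc, −0.21 ± 2.74 for the vesicular monoamine transporter gene Vmat, −1.77 ± 2.34 for the dopamine transporter gene DAT, −1.54 ± 1.79 for ChAT, −2.83 ± 1.63 for the acetylcholine transporter gene VAChT and −1.98 ± 1.87 for the RNA-binding protein gene elav. The synaptobrevin gene nSyb had −0.09 ± 0.79, with 10.65 to 11.61 in dopaminergic mutants and 10.77 to 11.29 in dopaminergic controls. In elav the 3 dopaminergic mutants measured 11.49, 11.89 and 6.27, and its difference was −0.17 without dopaminergic mutant replicate 3. Among other list members, the ferritin gene Fer2LCH differed by −5.31 ± 1.66, with 5.32, 9.06 and 5.54 in dopaminergic mutants, against 11.14, 10.79 and 9.99 in dopaminergic controls, and its cholinergic groups overlapped. The kinase gene Ask1 of the JNK pathway differed by −2.06 ± 0.82, with 8.61, 7.44 and 6.59 in cholinergic mutants, against 6.15, 5.75 and 4.77 in cholinergic controls. The adhesion gene beat-IV differed by −3.75 ± 1.22 and its relative dpr1 of another family by 3.37 ± 1.27. None of these genes passed the test of the difference (limma adjusted p 0.773 or above).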
